A study of Mus musculus with 3 samples.

Results

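The 6 genes Hmgcs1, Mvk, Pmvk, Mvd, Idi1 and Fdps encode enzymes of the mevalonate pathway from the synthesis of HMG-CoA to farnesyl diphosphate. They were chosen by symbol, and all 6 were found among the 19505 named genes of the arrays, with 1 probe set each. Their transcripts were measured in CD8 T cells of the mouse that had been activated with CD3 and CD28 stimulation under Tc1 cytokines, which favour cytotoxic effector cells. The control culture had no cholesterol added and the others had 0.5 or 0.75 µg/ml, and the total RNA of each culture was hybridised to 1 whole-transcript array. Strain, age, the number of animals, the length of exposure and the carrier of the cholesterol are not in the labels used here. With 1 array per group nothing below could be checked in replicates or tested, and precision is limited by the number of arrays. In total RNA from a culture, fewer cells of a type and less RNA per cell cannot be told apart.

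The mevalonate pathway turns acetyl-CoA into isoprenoid building blocks that end in cholesterol, in the side chain of ubiquinone, in dolichol, and in the lipid anchors of prenylated proteins. Dividing T cells use it to build membrane. Its genes are driven by the transcription factor SREBP2, which the sterol-sensing protein SCAP carries to the Golgi when sterols are low, and which Insig proteins hold back in the endoplasmic reticulum when sterols are abundant. HMGCS1 condenses acetyl-CoA with acetoacetyl-CoA to HMG-CoA. After a reduction to mevalonate, a step not analysed here, MVK and then PMVK phosphorylate mevalonate, and MVD decarboxylates the product to isopentenyl diphosphate. IDI1 interconverts isopentenyl and dimethylallyl diphosphate, and FDPS joins them into farnesyl diphosphate.

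Sequences before the RefSeq gene start (GRCm38.p6) were held for 5 of the 6 genes, Fdps being the exception. All but the Pmvk windows are shown, because the genes are known targets of one factor, and SREBP2 acts on promoters together with NF-Y and Sp1. The windows are chr13:119690101-119690350 (plus strand) for Hmgcs1, chr5:114444074-114444263 (plus strand) for Mvk, chr8:122443423-122443672 (minus strand) for Mvd and chr13:8885356-8885605 (plus strand) for Idi1. The Mvk stretch is the whole interval between the annotated ends of Mvk and its neighbour Mmab, and the full window also takes in the edge of Mmab, not printed, with a further Sp1 box. Capitals mark matches on either strand to the sterol regulatory element letters TCACNCCA, the NF-Y box CCAAT or the Sp1 box GGGCGG, none of which overlapped another.
Hmgcs1: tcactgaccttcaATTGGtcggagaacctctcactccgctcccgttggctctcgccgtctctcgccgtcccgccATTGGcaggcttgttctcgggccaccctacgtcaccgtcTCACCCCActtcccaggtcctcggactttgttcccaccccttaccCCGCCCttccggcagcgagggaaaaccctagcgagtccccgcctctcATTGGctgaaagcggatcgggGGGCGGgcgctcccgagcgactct
Mvk: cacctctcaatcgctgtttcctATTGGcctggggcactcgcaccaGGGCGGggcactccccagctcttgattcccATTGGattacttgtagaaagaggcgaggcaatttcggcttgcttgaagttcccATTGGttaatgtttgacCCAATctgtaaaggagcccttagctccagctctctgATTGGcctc
Mvd: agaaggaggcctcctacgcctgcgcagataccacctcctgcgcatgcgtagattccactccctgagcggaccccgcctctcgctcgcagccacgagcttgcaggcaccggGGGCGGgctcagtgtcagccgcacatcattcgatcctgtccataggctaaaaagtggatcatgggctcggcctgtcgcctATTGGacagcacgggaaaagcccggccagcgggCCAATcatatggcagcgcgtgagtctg
Idi1: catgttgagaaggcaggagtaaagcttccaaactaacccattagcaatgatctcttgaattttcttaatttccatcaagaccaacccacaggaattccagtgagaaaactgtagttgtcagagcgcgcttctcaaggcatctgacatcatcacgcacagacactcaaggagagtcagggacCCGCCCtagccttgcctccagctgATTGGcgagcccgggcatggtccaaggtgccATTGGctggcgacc

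Over the 250 bases before the start, Hmgcs1 held 1 match to TCACNCCA, from position -137 to -130 counted from the start at 0, beside 3 NF-Y boxes and 2 Sp1 boxes. The sterol element letters matched in 1 of the 5 genes and in 3.67% of all 32851 windows of this length. A CCAAT box was found in 5 of the 5 genes, against 33.8% of all windows, and numbered 5 before Mvk, 3 before Hmgcs1, 2 each before Mvd and Idi1, and 1 before the upstream start of Pmvk. An Sp1 box was found in 4 of the 5 genes, against 32.7% of all windows, and Pmvk had none in either of its windows. The downstream Pmvk window lies past the upstream start, inside the gene, and its letters hold an ATG with an open reading frame. It may thus be coding sequence, and its lack of boxes is not read as a trait of a promoter. The palindromic E-box TCACGTGA, another sequence that SREBP proteins can bind, matched in 0 of the 5 genes and in 0.785% of all windows. Among genes of the later route from squalene to cholesterol, 9 of 9 with a window held a CCAAT box and 9 of 9 an Sp1 box. Among the branch genes that lead from farnesyl diphosphate to other products the counts were 6 and 7 of 12. They were 1 and 3 of 3 among genes of acetyl-CoA supply, and 4 and 6 of 7 among genes that control SREBP. The sterol element letters matched in 1 of the 9 later-route genes and 1 of the 7 genes that control SREBP. They matched in 0 of the 12 branch genes and 0 of the 3 acetyl-CoA supply genes. A gene was counted if any of its windows held a match, whereas the percentages are over single windows, so the measures are unlike. The 5 genes had 6 windows, the 9 later-route genes 11, the 12 branch genes 16, the 3 supply genes 3 and the 7 SREBP control genes 12. A match is a description of letters, and a window without one says nothing about the factor.

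**Figure D1:**
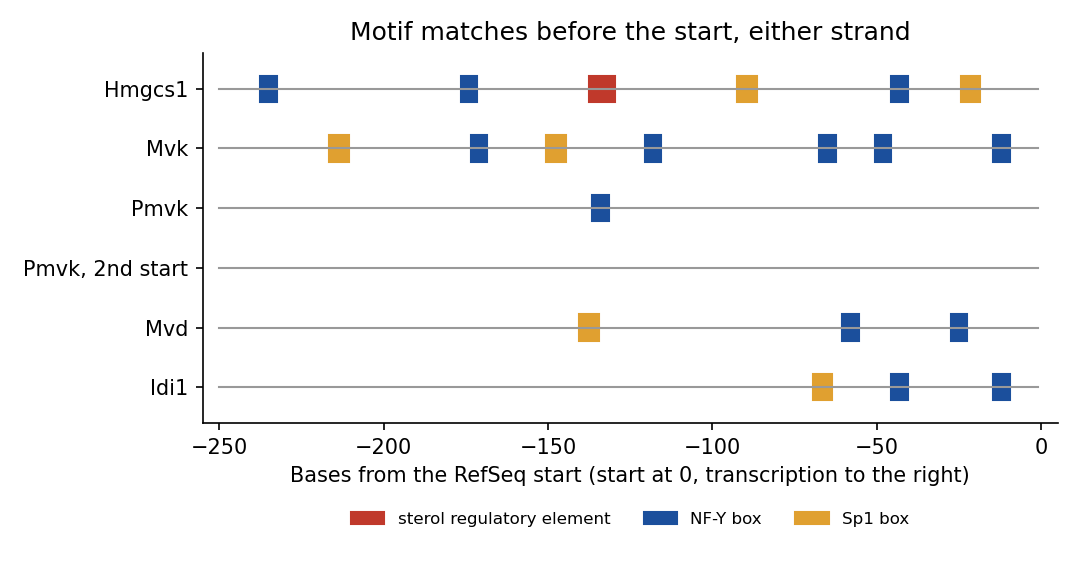
Positions of motif matches on either strand in the 250 bases before the RefSeq start of 5 genes, with Pmvk shown for both of its starts; the x axis is the distance in bases from the start, and coloured boxes mark the sterol regulatory element, NF-Y box and Sp1 box. The sterol element letters matched only before Hmgcs1, while NF-Y boxes stand before every gene shown, with 5 before Mvk and 0 before the downstream Pmvk start. The window of that start lies inside the gene and may be coding sequence.

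Overall levels were nearly the same on the 3 arrays, with median intensities over transcript probe sets of 43.3 in the control, 43.5 with 0.5 µg/ml and 44.5 with 0.75 µg/ml. The background level used here is the highest 95th percentile of the negative-control probe sets, an intensity of 102. A level filter at an intensity of 43.3, the median over transcript probe sets, kept 10003 genes, among them all 6 mevalonate pathway genes, each of which was above 102 on the control array. The CD8 T cell markers Cd8a, Cd8b1, Cd3e, Cd3d, Gzmb and Ifng were all above background on every array, so the labelled cell type was borne out. Their summed intensity was 20710 in the control, 21121 with 0.5 µg/ml and 19636 with 0.75 µg/ml. Cd8a, Cd8b1 and Cd3d at 0.75 µg/ml differed from the control by -0.35, -0.34 and -0.34 on the log2 scale, and Cd3e and Gzmb by 0.07 and 0.10. The part of these marker differences in the results below was not tested. Of the markers of other cells, both measured CD4 T cell genes, all 5 myeloid genes and 3 of 4 B cell genes were under 102 on all arrays. The exception was Cd79b, at 111 in the control, 100.3 with 0.5 µg/ml and 105 with 0.75 µg/ml. The summed intensities across the control and the rising doses were 71.5, 50.7 and 45.3 for CD4 T cell markers, 161, 143 and 148 for B cell markers, and 85.7, 80.4 and 82.8 for myeloid markers. The markers Cd4, Cd40lg, Cd79a, Ms4a1, Cd22, Lyz2, Csf1r, Itgam, Itgax and Adgre1 were each under background on every array.

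Hmgcs1, the cytosolic HMG-CoA synthase gene at the entry of the pathway, had an intensity of 1848 in the control, 1295 with 0.5 µg/ml and 285 with 0.75 µg/ml. It was well above background on every array and was lowest at the higher dose. The step between the doses was the larger one, with log2 differences of -0.51 for 0.5 µg/ml against the control and -2.19 for 0.75 against 0.5 µg/ml. The signal at 0.75 µg/ml was 15.4% of that in the control, a 6.49-fold lower level.

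Mvk, the mevalonate kinase gene, had an intensity of 155 in the control, 177 with 0.5 µg/ml and 67.3 with 0.75 µg/ml. Its value at the lower dose was above the control, by 0.19 on the log2 scale, and it was the only member of the 6 with that order. The 0.75 µg/ml value lay under the background level, so the difference of -1.20 from the control gives, with the dim value set to 102, a level at least 1.52-fold lower. Pmvk, the phosphomevalonate kinase gene, had an intensity of 216 in the control, 159 with 0.5 µg/ml and 103 with 0.75 µg/ml. Its levels stepped down at each dose and ended just above background, at 47.7% of the control, a log2 difference of -1.07.

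Mvd, the mevalonate diphosphate decarboxylase gene, had an intensity of 635 in the control, 319 with 0.5 µg/ml and 164 with 0.75 µg/ml, and was above background throughout. Its steps were of nearly equal size, -0.99 for 0.5 µg/ml against the control and -0.96 for 0.75 against 0.5 µg/ml. Idi1, the isopentenyl diphosphate isomerase gene, had an intensity of 511 in the control, 332 with 0.5 µg/ml and 101 with 0.75 µg/ml. The last value stood at the background level, and the level at 0.75 µg/ml was at least 5.02-fold lower than in the control with that value raised to 102. Fdps, the farnesyl diphosphate synthase gene and the target of nitrogen-containing bisphosphonate drugs, had an intensity of 383 in the control, 287 with 0.5 µg/ml and 62.1 with 0.75 µg/ml. It was at 74.9% of the control at the lower dose and 16.2% at the higher one, where the dim value sets a bound of at least 3.76-fold lower.

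**Figure D2:**
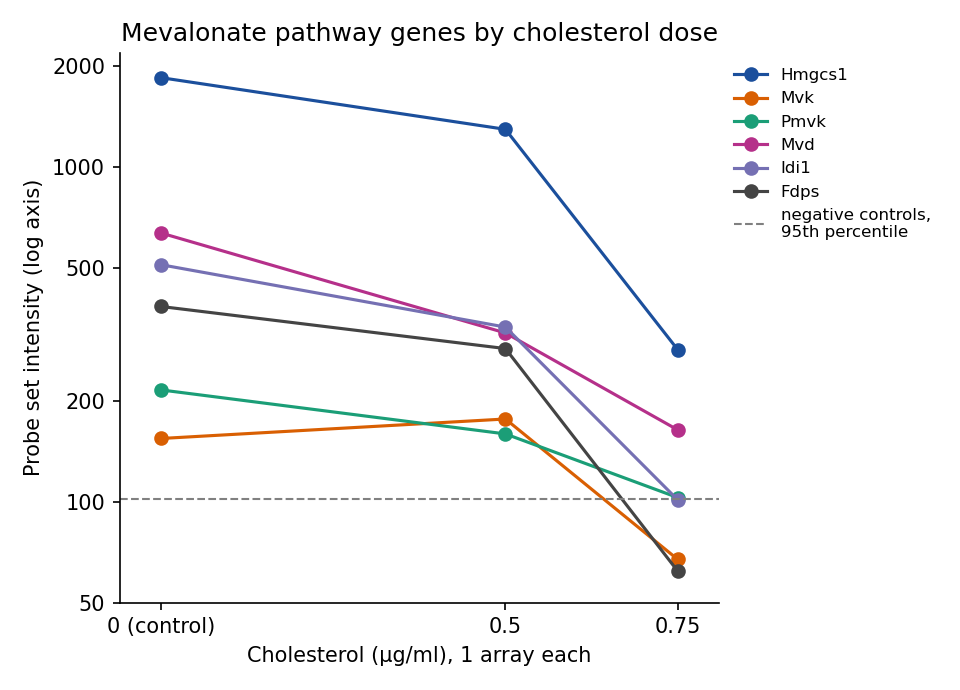
Probe set intensity (log axis) of the 6 genes against the cholesterol dose in µg/ml, with 1 array per dose and lines joining the arrays; the dashed line is the background level of 102. All 6 genes were lowest at 0.75 µg/ml, where Mvk, Idi1 and Fdps were at 67.3, 101 and 62.1, and only Mvk was higher at 0.5 µg/ml than in the control.

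Set against the control, the lower dose left 5 of the 6 genes below it, with a median log2 difference of -0.47 (SD over the 6 genes 0.38, range -0.99 to 0.19). Over all 10003 genes the median was 0.01, 44.7% were below the control, and the middle 95% lay between -0.40 and 0.41. The 5 lower genes were outside that range and Mvk was inside it. Ranked from the lowest difference among the 10003 genes, Mvd was number 3, Idi1 number 59, Hmgcs1 number 120, Pmvk number 187, Fdps number 222 and Mvk number 8610. Of the 6 genes 0 were at least 2-fold lower, against 0.02% of all genes and 0.013% of the 7688 genes above background on the control array. Mvd, 1.99-fold lower, missed that threshold narrowly, and 1 of the 6 genes passed it after quantile normalization or after subtraction of the negative-control median. Between these arrays the SD over the 1135 positive-control probe sets past the level filter was 0.27, against 0.20 over the 10003 genes. Of these probe sets 4 were at least 2-fold lower. The differences of -0.42 for Fdps, -0.44 for Pmvk, -0.51 for Hmgcs1 and 0.19 for Mvk were under 2 SDs of the positive-control probe sets in size.

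At 0.75 µg/ml all 6 genes were at least 2-fold lower than in the control, a threshold that 1.59% of all genes passed in that direction, as did 1.74% of the genes above background on the control array. The median log2 difference over the 6 genes was -2.14 (SD over the 6 genes 0.71, range -2.70 to -1.07), against 0.00 over all genes, whose middle 95% lay between -0.81 and 0.56. Among the members above background on both arrays, Hmgcs1 was number 4 from the lowest of the 10003 genes, Mvd number 26 and Pmvk number 138. Pmvk was only just above it at 0.75 µg/ml. Fdps, Idi1 and Mvk were number 6, 12 and 113 by 0.75 µg/ml values under background, and number 18, 7 and 276 once all dim values were raised to 102. The order among the 6 genes therefore depends on how dim values are treated, with Fdps at -2.62 as deposited and -1.91 raised. In either of these orders Hmgcs1 had the largest difference and the kinase genes Mvk and Pmvk the smallest ones. After subtraction of the negative-control median, however, Fdps at -2.90 lay below Hmgcs1 at -2.75. In the raised order the control level caps the difference that a gene can reach. Mvk and Pmvk were the dimmest of the 6 genes in the control, at 155 and 216, so that order cannot show whether they differed by less. With dim values raised to 102, 5 of the 6 genes were still at least 2-fold lower. The exception was Mvk, which could not reach 2-fold from its control level of 155. With an offset of 50 added before log2, 4 were at least 2-fold lower, with Mvk at -0.80 and Pmvk at -0.80. Over the positive-control probe sets the SD was 0.30, and 4 of the 1135 were at least 2-fold lower.

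Between the doses, the higher dose had the lower value for all 6 genes, with a median log2 difference of -1.55 (SD over the 6 genes 0.64), and 4 of them were at least 2-fold lower, against 1.2% of all genes and 1.38% of those above background on the control array. These were Hmgcs1 (-2.19), Idi1 (-1.71), Fdps (-2.21, or -1.49 with the dim value raised to 102) and Mvk (-1.39), while Mvd (-0.96) and Pmvk (-0.63) did not reach the threshold. With dim values raised to 102, Mvk was at least 1.74-fold lower and the count was 3. Mvk could not reach 2-fold there from its level of 177 at 0.5 µg/ml. Part of the whole log2 difference at 0.75 µg/ml was already present at 0.5 µg/ml. This share was 19.0% for Hmgcs1, 40.9% for Pmvk and 50.8% for Mvd. These genes were above background on every array, Pmvk only just at 0.75 µg/ml. For Idi1 it was 26.5%, or 26.6% with the dim value raised to 102, and for Fdps 15.9%, or 21.8% raised. Mvk has no such share, since its value at the lower dose was above the control. The comparisons share arrays, so an error on the control array would enter both differences from the control. An error on the 0.75 µg/ml array would likewise enter both of its comparisons. With an error on the 0.5 µg/ml array, 0.5 against control and 0.75 against 0.5 µg/ml would move in opposite directions.

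**Figure D3:**
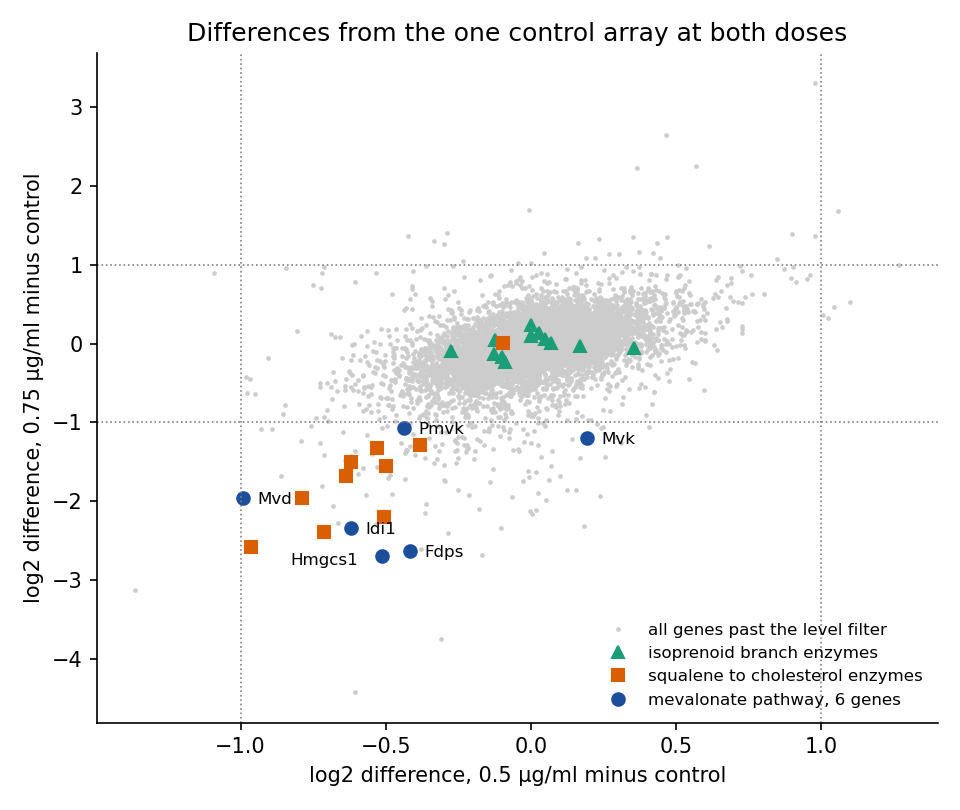
Log2 difference from the control at 0.5 µg/ml (x axis) and at 0.75 µg/ml (y axis) for the 10003 genes past the level filter, with the mevalonate pathway, squalene to cholesterol and isoprenoid branch genes marked; both axes use the same control array, and dotted lines mark a 2-fold difference. The 6 mevalonate pathway genes lie between -2.70 and -1.07 on the y axis, apart from the branch enzymes, which lie between -0.23 and 0.23.

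The enzymes that carry farnesyl diphosphate on to cholesterol were measured with 10 of the 12 listed genes. With 0.75 µg/ml, 9 of the 10 were at least 2-fold lower than in the control, against 1.59% of all genes. Their median was -1.62, with a range of -2.58 to 0.01 over the 10 genes. At 0.5 µg/ml the median was -0.58, and 10 of 10 were below the control. Sqle, the squalene epoxidase gene, had 80.7 at 0.75 µg/ml against 482 in the control, at least 4.74-fold lower with the dim value raised. Fdft1, whose product squalene synthase takes farnesyl diphosphate into the sterol branch, had 417 against 1618. Cyp51 and Sc5d, which act on the sterol after cyclisation, differed by -2.20 and -1.29. Msmo1 and Hsd17b7, which act on the same stretch of the route, were under background at 0.75 µg/ml and at least 3.81-fold and 3.15-fold lower. Ebp, a sterol isomerase gene, had 561 against 556. Of the log2 difference at 0.75 µg/ml, these 9 lower genes had between 23.1% and 41.4% at 0.5 µg/ml, or up to 42.9% with dim values raised to 102. The 2 lists, with median differences of -2.14 and -1.62 at 0.75 µg/ml, have overlapping ranges. With dim values raised to 102 the medians were closer, at -1.93 and -1.61. No test of their difference is possible with 1 array per group.

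Genes of enzymes that lead from farnesyl diphosphate to products other than sterols, or attach prenyl groups to proteins, stayed near their control values. Of 14 listed genes 12 were measured, and 0 of 12 were at least 2-fold lower or higher at either dose. Of all 10003 genes, 0.02% were at least 2-fold lower at 0.5 µg/ml and 1.59% at 0.75 µg/ml. At least 2-fold higher were 6 and 30 of them, so a count of 0 among 12 genes is close to the share over all genes. Their median difference at 0.75 µg/ml was -0.01, with a range of -0.23 to 0.23. Icmt and Rce1, the genes of a methyltransferase and a protease that process prenylated proteins, differed by -0.23 and -0.09 at 0.75 µg/ml. Fnta, the alpha subunit gene shared by the enzymes that attach farnesyl and geranylgeranyl groups to proteins, differed by -0.14, Pggt1b, a beta subunit gene of the geranylgeranyl-attaching enzyme, by 0.04, and Rabggta, which prenylates Rab proteins, by -0.17. Nus1, needed for dolichol synthesis, had 807 at 0.75 µg/ml against 799.9 in the control. Pdss2, needed for the ubiquinone side chain, was under background on all arrays.

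**Figure D4:**
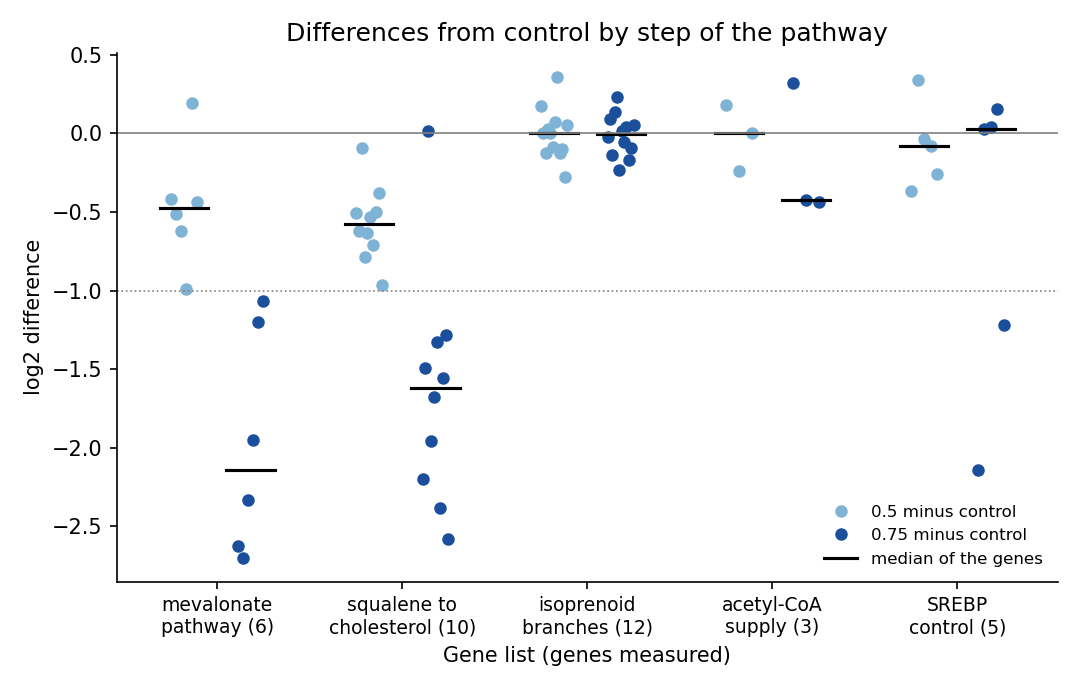
Log2 differences of single genes (points) at 0.5 µg/ml minus control and at 0.75 µg/ml minus control, by gene list, with the median of each list as a black bar; the dotted line marks a 2-fold lower level. At 0.75 µg/ml the medians were -2.14 for the mevalonate pathway, -1.62 for squalene to cholesterol and -0.01 for the isoprenoid branches.

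Upstream of Hmgcs1, 3 of 4 listed genes of acetyl-CoA and acetoacetyl-CoA supply were measured, and these differed by less. Acat2, the cytosolic thiolase gene, was not among them, so the cytosolic step to acetoacetyl-CoA has no value here. Acly, the ATP citrate lyase gene, had 714 at 0.75 µg/ml against 956 in the control (-0.42). Acss2, the cytosolic acetyl-CoA synthetase gene, had 144 against 195 (-0.44), and Acat1, the mitochondrial thiolase gene, had 678 against 544 (0.32). Among the genes that control SREBP, 5 of 7 listed were measured. At 0.75 µg/ml 2 were at least 2-fold lower, against 1.59% of all genes. Insig1, itself a sterol-regulated gene, had 176 against 779, and Srebf2, the gene of SREBP2, had 1188 against 2759. Scap and the site-1 protease gene Mbtps1 differed by 0.16 and 0.04, and Insig2 was under background on all arrays. Of relatives of the 6 genes, Idi2, a paralog of Idi1, was at 8.17 in the control, 10.6 with 0.5 µg/ml and 8.30 with 0.75 µg/ml, far under background. Galk2, a kinase of the same superfamily as Mvk, had 139.5 at 0.75 µg/ml against 115 in the control.

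The genes whose pair of differences from the control came closest to the median of the 6, by Euclidean distance over the 2 doses, were Cyp51 (distance 0.06 in log2 units) and Insig1 (0.11). The next were Dhx58, Nrn1, Snx29, Plaur, Rab34, Tsc22d3, Ifit3 and Irf7, with distances from 0.15 to 0.32. Of these 10 genes, 7 were under background at 0.75 µg/ml, all but Cyp51, Insig1 and Nrn1, and Rab34 was under it on all arrays, so their distances rest on dim values. Cyp51 and Insig1 belong to the sterol genes, whereas Dhx58, Ifit3 and Irf7 are interferon-stimulated genes. Nrn1 had 335 at 0.75 µg/ml against 1634 in the control and Irf7 had 95.7 against 507. Among the 6 genes themselves, Idi1 was nearest to their median, at 0.24, and Mvk and Pmvk were farthest, at 1.16 and 1.08. This likeness rests on 3 arrays with a shared control.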

How the data were processed

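The authors deposited a table with an intensity for each probe set on each array. Its range shows that the scale is linear. Per the labels, RNA was prepared with Trizol and biotin-labelled by a whole-transcript sense method. The summarisation and scaling software is not given in the sources used here. Exactly equal values on the control and 0.5 µg/ml arrays occurred for 246 of the 10003 genes (2.46%), and for 0 members. How they arose is not known, so an exact 0 is not read here as a measured equality. Among them were the branch genes Ggps1, at 357, and Dhdds, at 424, and the median difference of the branch list at 0.5 µg/ml was 0.

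A single gene symbol was paired with 19572 of the 22206 probe sets for transcripts, and 2634 are unnamed here. The brightest probe set per gene was used, and log2 was taken after a floor of 1 with no further normalization. The level filter required a mean log2 value of 5.44, the median over transcript probe sets, which 14.2% of negative controls also reached. Each comparison subtracts the log2 values of 2 arrays, and genes were counted from a 2-fold difference. Arrays were grouped by their labelled protocol. Motifs were searched on both strands of the RefSeq windows.

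The members, lists and settings were chosen with earlier results of these data known. All 6 members were named. Of lists with over 6 genes, the 5 with the largest and the 2 with the smallest mean difference were named, and of shorter lists all, as were the 10 genes of most like pattern without predicted or clone-named genes. Of the listed genes 13 were not analysed here. Of 9 alternative settings, 1 was chosen after seeing the data. Calling was tested on simulated data. The differences put in were beyond 2-fold, so that run checks the code and says nothing about dim values or array error. Python 3.11.15, numpy 2.4.6, pandas 2.3.3 and matplotlib 3.10.9 were used.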

Additional observations from a re-analysis of the deposited data

How the results depend on the processing

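With 1 array per group, no array could be left out. No paired analysis was possible because each group had 1 array. A value was taken as moved if it differed from the reported one by more than the SD of the positive-control probe sets between the arrays compared, and a count if it differed over 1.5 times. The median over the 6 genes stayed negative in all 3 comparisons under 6 alternatives, of which the mean over all probe sets cannot change it, since each gene has 1 probe set, and the floor leaves the 0.5 µg/ml comparison with the control as it was. Against the control it ranged from -0.49 to -0.43 at 0.5 µg/ml and from -2.26 to -1.78 at 0.75 µg/ml, where it was -1.78 with an offset of 50. Between the doses it was -1.23 with a floor at the negative-control 95th percentile and -1.14 with an offset of 50. These settings compress dim values by construction. The count of the 6 genes at least 2-fold lower at 0.5 µg/ml was 1, in place of 0, under quantile normalization and after subtraction of the negative-control median. At 0.75 µg/ml it was 5 under the floor, where Mvk could not reach 2-fold, and 4 with the offset.

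Counts over all genes moved more. At 0.5 µg/ml, lower and higher genes numbered 1 and 2 under the floor, 1 and 0 with the offset, 16 and 19 after background subtraction, 29 and 25 without a level filter, 1 and 3 with a filter at background on 1 array, and 6 and 10 with a filter at the median over all probe sets, which was chosen after seeing the data. With the mean over probe sets 1 gene was lower. At 0.75 µg/ml they numbered 98 and 15 under the floor and 90 and 12 with the offset, and the higher genes 73 after background subtraction and 82 without a filter. Between the doses they numbered 75 and 12 under the floor and 52 and 10 with the offset, and the higher genes 76 without a filter. Signal over background limits Mvk, Idi1 and Fdps at 0.75 µg/ml, whose folds are bounds. Pmvk, at 103 there, was only just above the background level, and its difference from the control was -0.80 with the offset.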

Other observations

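Protein-coding genes within 2000 bases of a member were looked up after the lists had been set, and 4 were found. Mmab, which encodes the enzyme that makes adenosylcobalamin and lies head to head with Mvk across a gap of 191 bases, had an intensity of 373 in the control, 297 with 0.5 µg/ml and 224 with 0.75 µg/ml. Its differences from the control were -0.33 and -0.74 on the log2 scale, against 0.19 and -1.20 for Mvk. At the lower dose the genes of this pair were thus on opposite sides of the control, by amounts close to the SD of 0.27 of the positive-control probe sets. Rusc1, beside Fdps, differed by -0.41 at 0.5 µg/ml and -0.31 at 0.75 µg/ml. Cyba, a subunit gene of the phagocyte NADPH oxidase beside Mvd, differed by -0.11 and -0.09. Nim1k, beside Hmgcs1, was under the background level on all arrays, at 33.8 in the control, 17.6 with 0.5 µg/ml and 17.3 with 0.75 µg/ml.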
